A study of Homo sapiens with 7 samples.

Results

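Integrins, laminins and collagens are the receptors and the matrix proteins through which cells hold on to their surroundings. The 80 genes described here were taken by a rule on gene symbols from a table of 25918 transcripts of 24721 gene symbols. The rule was set with earlier results of these data known. The genes are 17 integrin alpha subunits, 8 integrin beta subunits, 12 laminin chains and 43 collagen chains, each with 1 transcript labelled coding. The table lists where messenger RNA carried N6-methyladenosine (m6A), a methyl mark on adenosines inside the transcript, in untreated human cells labelled HepG2, a hepatocellular carcinoma line. From poly(A) RNA cut to about 100 nt, 4 libraries were made after immunoprecipitation with an antibody against m6A (m6A-IP) and 3 from input RNA that was not precipitated. All 7 libraries come together in 1 value per transcript or peak, so neither depth nor spread between libraries is known. No test of IP against input could be made. The intervals below (95% Wilson) cover counting alone. Those over peaks treat the peaks of 1 transcript as independent, which makes them too narrow. Each transcript has an expression quantile, a rank from 0 to 1 whose scaling for transcript length is not stated, and each peak has a position, an exon, a segment and a score that ranks peaks on a scale the authors did not state.

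An integrin is a pair of an alpha and a beta subunit that spans the membrane, binds matrix outside and links to actin inside. Laminins are trimers of an alpha, a beta and a gamma chain and, with type IV collagen, build the basement membrane under epithelia. Collagens share a triple helix of repeated glycine-X-Y triplets, and their helical regions are encoded by many short exons. m6A is known to gather in long exons, around stop codons and in 3′ UTRs. The antibody also binds a dimethylated adenosine next to the cap, and this mark and m6A cannot be told apart at transcript starts.

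Most markers of the labelled cell type were at the lowest quantile. Of 10 hepatocyte genes, 6 (ALB, AFP, APOB, TTR, SERPINA1 and APOH) stood at this quantile of 0.314, which 8139 transcripts share. The others, FGB, HNF4A, APOA1 and TF, were at 0.619, 0.509, 0.403 and 0.337. None of the 10 had a peak. Of the 6 epithelial genes, the keratins KRT8, KRT18 and KRT19 were at 0.996, 0.992 and 0.964, and CLDN4, EPCAM and CDH1 at 0.611, 0.498 and 0.368. The mesenchymal filament gene VIM was at 0.997, while all 6 leukocyte genes lay at or below 0.479. The collagen-binding matrix genes DCN and LUM, of the fibroblast list of 8 genes, were at 0.924 and 0.9. TWIST1, PDGFRB and THY1 of the same list were at 0.855, 0.529 and 0.428, and PDGFRA and POSTN at 0.314. The 5 endothelial genes ranged from 0.314 to 0.551, and 2 of them had a peak. The cells are therefore called cells labelled HepG2, and what their identity contributes to the values below was not tested.

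At least 1 peak was listed for 25 of the 80 genes (31.25%, interval 22.2 to 42.1%), against 27.9% of all transcripts and 35% of coding ones. By family, 5 of 17 integrin alpha genes, 4 of 8 integrin beta genes, 5 of 12 laminins and 11 of 43 collagens had a peak. The 25 genes carried 50 peaks, a mean of 2.00 per gene with a peak, against 1.78 in other coding transcripts. Above the lowest quantile 25 of 63 members had a peak (39.7%), against 45.8% of such coding transcripts, and from a quantile of 0.5 upwards 25 of 39 (64.1%), against 58.5%. A peak with a score of at least 3 was listed for 20 of the 80 (25%), against 19.3% of all transcripts, noncoding ones included. Of other coding transcripts, the like comparison, 4837 of 19885 had such a peak, a share close to that of the members. Over the whole set these shares lie near the background. Most of the genes without a peak were weakly expressed, with 47 of the 80 below a quantile of 0.6 and 17 at the lowest quantile. None of those 47 had a peak. From 0.3 to 0.4, where 30 of them lie, 1 of 6307 other coding transcripts had one. The share of others was 3.91% from 0.4 to 0.5 (11 members) and 28.5% from 0.5 to 0.6 (6 members).

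**Figure D1:**
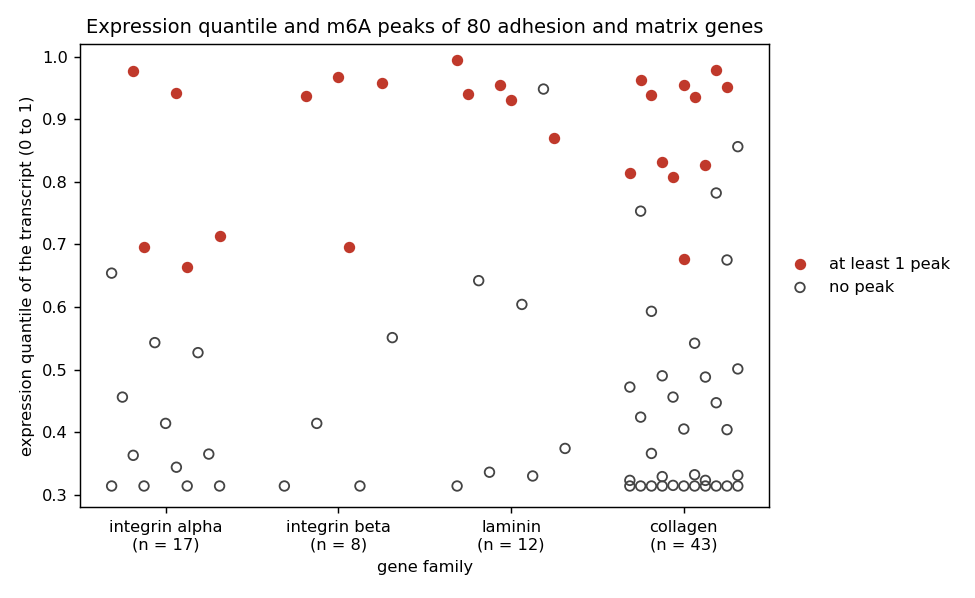
Expression quantile (0 to 1) of each of the 80 genes by family, filled where the transcript had at least 1 m6A peak and open where it had none. Every filled point lies above 0.6, and above 0.8 the open points are LAMB2 among laminins and COL4A5 among collagens.

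Among strongly expressed genes the members' share was the higher. At quantiles of 0.8 and over, 20 of 22 members had a peak (90.9%, interval 72.2 to 97.5%), against 3530 of 5019 other coding transcripts (70.3%, 69.1 to 71.6%). From 0.9 upwards the counts were 15 of 16 members and 1740 of 2515 others (69.2%). Below 0.8 it was not. From 0.5 to 0.6, none of 6 members had a peak, against 28.5% of others, and from 0.6 to 0.7 they were 4 of 8, against 52.1% of others. From 0.7 to 0.8 they were 1 of 3, against 65.1% of others. The members are long. The longest coding transcript of a member gene had a median of 5889 nt, against 3071 nt for the 18166 other coding transcripts with a length. Within the length range of 4000 to under 6000 nt, at quantiles of 0.8 and over, 8 of 9 members and 79.3% of 936 others had a peak. From 6000 nt upwards the counts were 11 of 12 members (91.7%, interval 64.6 to 98.5%) and 84.1% of 578 others (80.9 to 86.8%), so with length in view the intervals overlap.

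**Figure D2:**
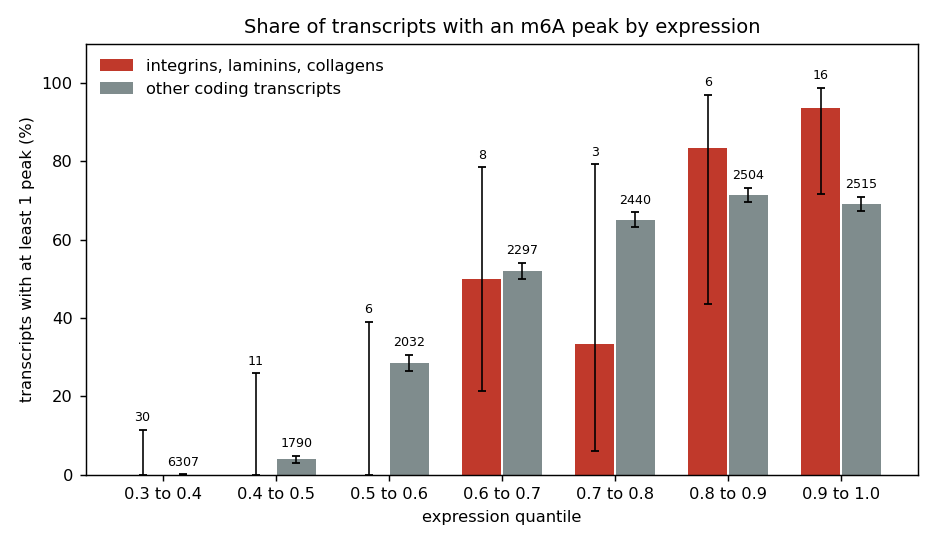
Share of transcripts with at least 1 m6A peak (%) by bin of expression quantile, for the 80 integrin, laminin and collagen genes and for other coding transcripts, with 95% Wilson intervals and the number of transcripts above each bar. In the top bin the bars stand at 93.75% (16 members) and 69.2% (2515 others), and below 0.6 no member had a peak.

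The score of the 50 peaks had a median of 3.67 (order-statistic interval 3.24 to 3.91), against 3.15 for 12374 peaks of other coding transcripts. By family the median was 3.83 for collagens, 3.44 for laminins, 3.42 for integrin alpha and 3.11 for integrin beta, the last below that of the others. Scores of at least 5 were given to 9 of the 50 (18%), against 7.33% of the others. Of these 9, 5 were of collagens, 3 of integrin alpha, 1 of integrin beta and none of laminins. The members' peaks ran from 2.01, just above the table's minimum of 2.00, to 7.73. Scores also differed within single genes, where ITGA6 had peaks of 7.73 and 3.13, and ITGB8 had 4 peaks between 2.36 and 5.51. The 3 highest of the 50 belonged to ITGA6, COL12A1 and ITGA3. In each of the 5 segments the members' median was at or above that of the others, with 3.67 and 3.14 in the coding sequence, 3.85 and 3.45 around the stop codon, 3.72 and 3.21 in the 3′ UTR, and 2.74 and 2.73 at the transcript start.

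**Figure D3:**
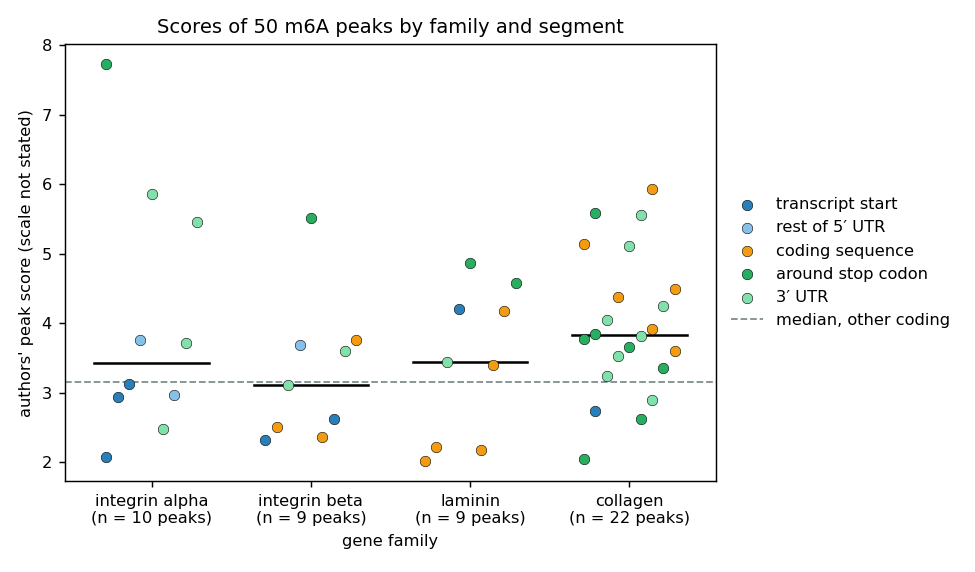
Authors' score of each of the 50 peaks by family, coloured by the segment that holds it, with a black bar at each family's median and a dashed line at 3.15, the median of other coding transcripts. The highest point is the stop codon peak of ITGA6 at 7.73, and 6 of the 7 transcript start peaks lie at or below 3.13.

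Because the mark falls in a short motif, sequences are shown for some of the strongest peaks that have it nearby. They are the RRACH site (R for a purine, H for any base but G) nearest to the listed peak position in the highest-scoring placed peak of ITGA6, ITGA5, ITGB8, LAMC1, COL5A2 and COL5A1, followed by the sites in the long inner exons of COL15A1 and COL18A1. Each is 30 bases of the GENCODE release 29 transcript, 5′ to 3′ with T for U, and capitals mark the RRACH site.
ITGA6: tacacacagtacGAACCtacagttttaact
ITGA5: catggtgccccaGGACCagctcaggacaga
ITGB8: agtcacaggaggAGACAaattgctcacggt
LAMC1: ggagatcatgaaGGACAttcgcaatctgga
COL5A2: cgccattcacaaGAACTttgactgtttgaa
COL5A1: agccatagccgaGGACTgtcccgcgacccc
COL15A1: caccttcttcagGGACTtcgccatcagcgt
COL18A1: ggacgggcaccaGGACAtctccctgctcta
The adenosine of the motif lay on the listed position in ITGA5, 3 nt before it in LAMC1 and 30 nt before it in ITGA6. With fragments of about 100 nt, the listed position does not say which site carried the mark. No site is shown for COL12A1 (5.93) and LAMA5 (4.2), which had no RRACH within 50 nt as placed. ITGA3 (5.86) was not placed.

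Of the integrin alpha subunits, ITGA6, ITGA3, ITGA5, ITGAV and ITGA1 had peaks. ITGA6, a laminin receptor subunit (chromosome 2, 173000560 to 173079427, plus strand, with the build unstated), was at a quantile of 0.714. Its peak at position 3636, in exon 25 of 25, scored 7.73 and ranked 2 of all 12769 peaks of the table. It lay 157 nt after the stop codon of the matched transcript, in a last exon of 2363 nt.

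ITGA3, a further laminin receptor subunit (chromosome 17, 45488339 to 45522848, plus strand), had 3 peaks at a quantile of 0.977. Their scores were 5.86 and 2.47 in the 3′ UTR and 2.97 in the 5′ UTR. ITGA5, the fibronectin receptor subunit (chromosome 12, 53075312 to 53099317, minus strand), was at 0.941, with scores of 5.46 and 3.72 in the 3′ UTR and 2.93 at the transcript start. ITGA6, ITGA3 and ITGA5 thus paired 1 peak in the first exon with a stronger one in the last. ITGAV, which binds vitronectin and latent TGF-beta with several beta partners, had a single start peak of 2.08, and ITGA1, a collagen receptor subunit, a single 5′ UTR peak of 3.75, at quantiles of 0.696 and 0.664. Neither had a peak in its last exon, which has 3705 and 6804 nt in GENCODE. The last exon of the listed transcript may be shorter, since lengths are given only for exons with a peak.

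The beta subunits differed from one another in the same way. ITGB8, which pairs with alpha-V to activate TGF-beta (chromosome 7, 20337250 to 20421907, plus strand), had 4 peaks at a quantile of only 0.695, led by 5.51 around the stop codon in a last exon of 5885 nt. ITGB1, the shared partner of most alpha subunits above (chromosome 10, 33229252 to 33287299, minus strand), was at 0.967 and had 1 start peak of 2.62. ITGB4, the partner of alpha-6 in hemidesmosomes, was at 0.937 with 2.32 at the start and 3.75 in exon 7, a coding exon of 172 nt. ITGB5, a vitronectin receptor subunit at 0.958, had 3.60 in the 3′ UTR and 2.50 in exon 10. The partners ITGA6 and ITGB4 therefore carried top scores of 7.73 and 3.75, and ITGA5 and ITGB1 5.46 and 2.62.

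Most integrin transcripts with a peak had one in the first exon. Of 9 integrin genes with a peak, 8 had one in exon 1 (88.9%, interval 56.5 to 98.0%), ITGB5 being the exception. The share was 28.7% of 6965 other coding transcripts with a peak and 42.9% of those at quantiles of 0.9 and over. Among laminins it was 2 of 5 and among collagens 1 of 11. The integrins' first-exon peaks were weak, with scores of 2.08 to 3.75 and a median of 2.95, against 2.79 for those of others. The 2 of laminins scored 4.17 and 4.2. With scores of at least 3 alone, the counts were 3 of 7 integrins (42.9%, interval 15.8 to 75.0%) and 16.6% of 4837 others, and 5 of the 8 integrin first-exon peaks scored under 3. The first-exon peaks of ITGA5, ITGA6, ITGAV, ITGB1 and ITGB4 lay within 200 nt of the transcript start.

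The 5 laminins with a peak were LAMA5, LAMC1, LAMB1, LAMC3 and LAMB3, all at quantiles of 0.870 or more. LAMA5, the alpha-5 chain (chromosome 20, 60317516 to 60375763, minus strand), was at a quantile of 0.994 and had 1 peak, of 4.2, at the transcript start. No other peak was listed along its 80 exons, of which the last has 411 nt. LAMC1, the gamma-1 chain (chromosome 1, 181259218 to 181381350, plus strand), had 3 peaks at 0.930, with 4.86 at 73 nt before the stop codon, 4.17 in exon 1 and 2.17 in exon 2. LAMB1, the beta-1 chain, had 2 coding peaks of 3.39 and 2.01 at 0.940. LAMC3, the gamma-3 chain, scored 4.57 at 20 nt after the stop codon and 2.22 in exon 27, at 0.870. LAMB3, the beta chain of the hemidesmosome laminin, had 1 peak, of 3.44 in the 3′ UTR, at 0.955, while the alpha chain LAMA3 had none, at 0.604.

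The laminins held the peaks in the shortest exons. LAMB1 exon 24 (97 nt, 2.01), LAMC3 exon 27 (100 nt, 2.22) and ITGB4 exon 7 (172 nt, 3.75) were the only 3 of 913 inner exons under 200 nt in these 25 genes with a peak (0.329%, interval 0.112 to 0.962%), against 104 of 44451 in other matched transcripts with a peak (0.234%).

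Collagens held most of their peaks in the last exon. Of 22 collagen peaks, 16 were there (72.7%, interval 51.8 to 86.8%), 1 was in a first exon and 5 were in inner exons. The 16 last-exon peaks came from 9 genes. In 9001 peaks of other matched transcripts the shares were 63.4% last, 19.1% first and 17.5% inner. By segment, 15 of the 22 lay around the stop codon or in the 3′ UTR (68.2%, interval 47.3 to 83.6%), against 48.1% of peaks of other coding transcripts, and 6 in the coding sequence. The strongest last-exon peaks were those of the type V chains, which set the diameter of collagen fibrils. COL5A2 (chromosome 2, 189604886 to 189752850, minus strand) had 5.58 at 48 nt after the stop codon and 5.11 further on, at a quantile of 0.936. COL5A1 (chromosome 9, 136673473 to 136876509, plus strand) had 5.56, 4.04 and 3.85 in a last exon of 2686 nt, at 0.978. A transcript on the other strand, BC058547, overlaps COL5A1, has no peak of its own and is at 0.698. Whether reads were counted by strand is not stated.

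**Figure D4:**
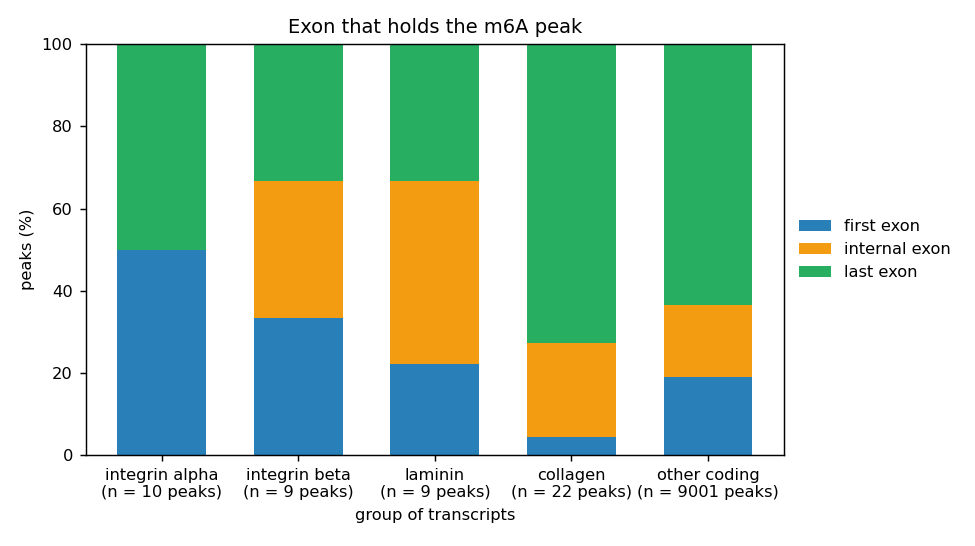
Share of peaks (%) in the first, an internal or the last exon, for 10 integrin alpha, 9 integrin beta, 9 laminin and 22 collagen peaks and for 9001 peaks of other coding transcripts matched to GENCODE. First exons hold 50% of integrin alpha peaks and 4.55% of collagen peaks, and last exons hold 72.7% of collagen peaks.

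The 5 inner-exon peaks of collagens fell in the only long inner exons that the 11 genes with a peak have. COL12A1, a fibril-associated collagen (chromosome 6, 75850762 to 75972343, minus strand), had its single peak, of 5.93, in exon 10 (603 nt). COL15A1 and COL18A1, the basement membrane collagens whose ends give antiangiogenic fragments, scored 4.37 in exon 3 (548 nt) and 4.49 in exon 2 (545 nt). COL27A1, a fibrillar collagen of cartilage, had 5.14 and 3.60 in exon 3 (1775 nt). Over all 80 genes, 6 of 43 inner exons of at least 400 nt held a peak, the others being exon 10 of ITGB5 (430 nt) and of ITGB8 (406 nt). These 6 are in genes at quantiles of 0.695 to 0.958, and the 37 without a peak are in 10 genes at 0.405 or lower, among them COL6A3, COL29A1, COL6A6, ITGB3 and ITGB6. Those 10 genes had no peak anywhere. In other matched transcripts with a peak, 859 of 1378 such exons held one (62.3%). COL12A1 and COL27A1 have peaks in no other exon, so they are among the genes with a peak through these exons alone, and 6 of 6 cannot be read against that share.

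Few collagen peaks could be set against the triple helix. Stretches of at least 6 glycine-X-Y triplets made up 48.4% of the coding sequence of the 11 collagens with a peak, from 7.64% in COL12A1 to 78.5% in COL4A1. Of 19 collagen peaks set against the coding sequence of a reference transcript, 6 lay inside it, in COL15A1 (2 peaks), COL18A1, COL4A2, COL4A6 and COL6A1, and none of the 6 was in such a stretch. The other 13 lay in UTRs. COL12A1 was left out of this count because the coding sequence of its matched transcript starts after the peak, and COL27A1 because its transcript was not placed. Exon 3 of COL27A1 has 36 nt of such a stretch in 1775 nt. The 578 inner exons under 200 nt of these 11 genes held none of the 22 peaks, which is near the 0.234% of such exons with a peak in other transcripts.

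The coding exons of these 11 genes differ from those of other genes in length and motif content. Their inner coding exons have a median of 69 nt, against 123 nt in 16051 other coding genes, and 59.0% are a multiple of 9 nt long, the length of a whole number of triplets, against 13.6%. Those under 200 nt have 1.94 RRACH sites per 100 nt, against 1.54, and GGACC makes up 324 of their 927 sites, against 8.78% in the other genes. Of 355 GGACC in the coding sequences of the 11, 273 (76.9%) are a glycine codon GGA followed by a proline codon, against 17.9%. All 43 collagens, most of them without a peak, share these features. Their inner coding exons have a median of 60 nt, 64.3% are a multiple of 9 nt, and those under 200 nt have 1.97 RRACH sites per 100 nt. GGACC makes up 34.7% of those sites, and 83.9% of their coding GGACC are this codon pair. The features therefore do not set the 11 genes apart from other collagens. Whether they bear on where peaks were listed was not tested.

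**Figure D5:**
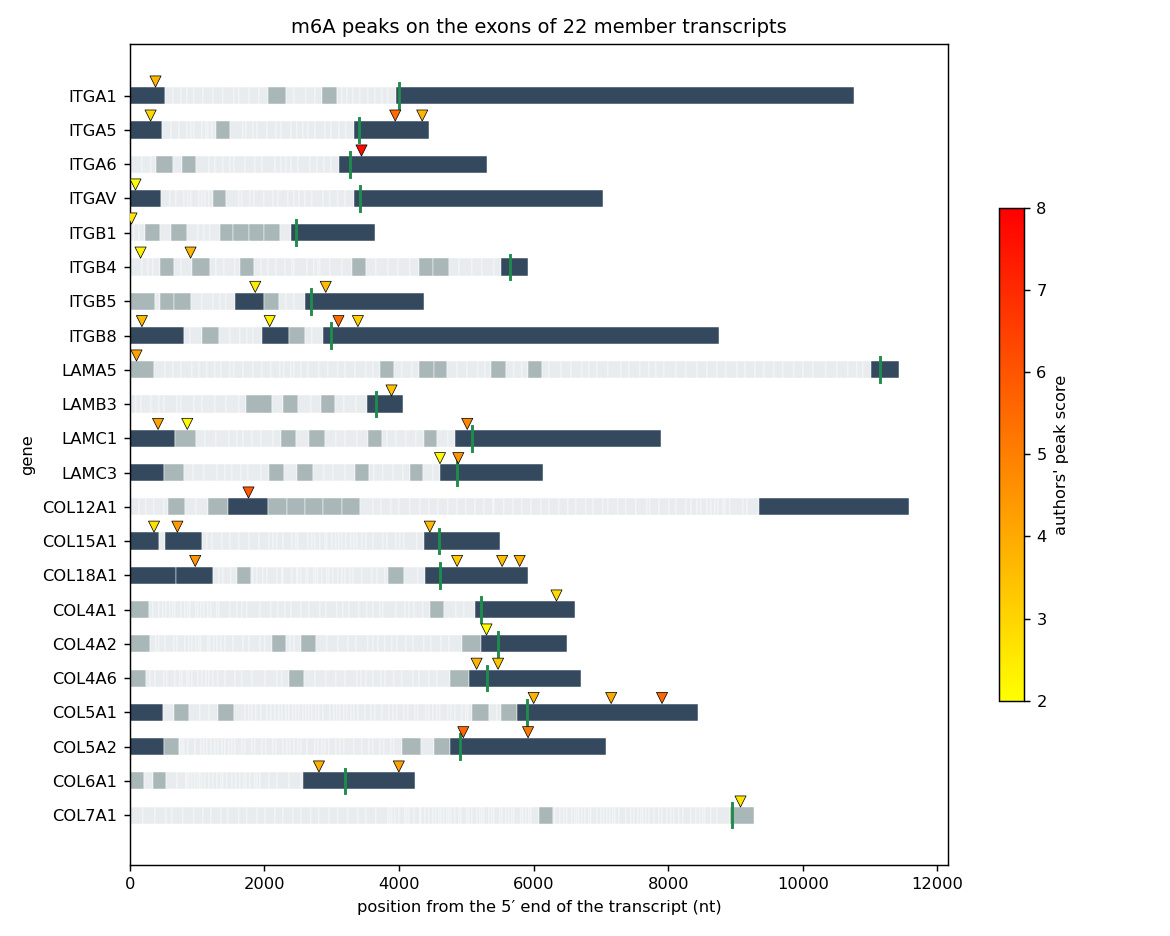
Exons of 22 member transcripts placed on GENCODE release 29, 5′ to 3′ in nt, shaded dark at 400 nt and over, mid grey from 200 nt and pale under 200 nt, with the end of the coding sequence as a green bar (left out for COL12A1) and each placed peak as a triangle coloured by score. Most triangles sit on the last exon or near the 5′ end, and the others include those on the dark inner exons of ITGB5, ITGB8, COL12A1, COL15A1 and COL18A1. The start peak of ITGA6 lies before the reference transcript and is not drawn.

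The other collagens with a peak were chains of basement membrane, anchoring fibrils and microfibrils. The paired type IV genes COL4A1 and COL4A2, whose starts lie 134 nt apart on opposite strands of chromosome 13, had 1 weak peak each in the last exon, 2.90 and 2.05, at quantiles of 0.832 and 0.951. COL4A6 and COL4A5, 1495 nt apart on chromosome X, differed. COL4A6 had 3.77 and 3.36 around the stop codon at 0.677, and COL4A5 had no peak at 0.856. COL6A1, of the beaded microfibrils, had 4.25 and 3.91 in its last exon at 0.826, and its neighbour COL6A2 none at 0.405. COL7A1, which forms anchoring fibrils, had 118 exons and 1 peak of 2.62, in the last one (350 nt), at 0.963.

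The most expressed members without a peak came in each family at different levels. LAMB2, the beta-2 laminin chain (chromosome 3, 49133551 to 49145603, minus strand), was at 0.948, and 69.8% of other coding transcripts within 0.05 of that quantile had a peak. Its longest coding transcript in GENCODE has a last exon of 249 nt, a 3′ UTR of 112 nt and no inner exon over 373 nt. LAMB1, at 0.94, has a last exon of 270 nt and no inner exon over 370 nt there, and had 2 peaks. COL4A5, COL1A1, the main chain of type I collagen, and COL9A3, a cartilage collagen, were at 0.856, 0.782 and 0.753, where 71.9%, 67.9% and 65.3% of others had a peak. The last exons of COL4A5 and COL1A1 have 1245 and 2360 nt in GENCODE. Their lengths in the listed transcripts are not given. If they are alike, a long last exon was not always listed with a peak. ITGA2, a collagen receptor subunit, was at 0.654, where 52.8% of others had a peak, with a last exon of 4261 nt in GENCODE. Its neighbour ITGA1, at 0.664, had a peak. LAMA1 and LAMA3 were at 0.642 and 0.604, where 51% and 43.4% of others had one. The leukocyte subunit ITGAE and the platelet subunit ITGA2B were at 0.543 and 0.527, where 26.5% and 21.4% of others had a peak. ITGB7 and ITGB2, both of leukocytes, were at 0.551 and 0.414, where 28.8% and 0.7% did. ITGB3 was at the lowest quantile, and from 0.3 to 0.4 a peak was listed for 1 of 6307 other coding transcripts.

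The RRACH motif was searched within 50 nt of placed peaks. For the 3 transcripts whose genomic span equals that of a GENCODE transcript (COL12A1, LAMA5 and LAMC1), this held for 2 of 5 peaks, against 3 of 5 windows 300 nt away. With spans allowed to differ by 10 nt it held for 9 of 14 (64.3%), against 10 of 14 distant windows, so neither match had more motifs at the peaks than away from them. When the 2 terminal exons were allowed to differ in length, 22 of the 25 genes and 42 of the 50 peaks could be placed, and 34 of the 42 had RRACH (81.0%, interval 66.7 to 90.0%), against 88.7% of 9001 peaks of other genes placed in the same way. Windows 300 nt away from these had it in 31 of 42 (73.8%) and 75.7%. Among member peaks outside the transcript start and 5′ UTR it was 30 of 34 (88.2%), and among those at the start and in the 5′ UTR 4 of 8. The peaks of other genes were not split in this way, so neither share has a like comparison. GGACT was near 12 of the 42 (28.6%) and 27.8% of the others, with 6 of 42 and 10.1% in the distant windows. Peaks without RRACH within 50 nt included the strong ones of COL12A1 (5.93) and LAMA5 (4.2) and the 4.17 peak of LAMC1. For COL12A1 the matched transcript is in doubt. Its coding sequence starts after this peak, which the authors listed in the coding sequence. The COL12A1 peak is also among the 5 exactly matched ones.

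Genes that act with these proteins were counted in 4 lists, to be read against 35% of all coding transcripts. Of 30 integrin adaptors and focal adhesion genes, 21 had a peak (70%), at a median quantile of 0.839. They were led by the talin TLN2 (5.63), TNS3 (5.55), which binds beta tails, and the kindlin FERMT1 (5.18), and the tetraspanin CD151 had none at 0.987. Of 25 other matrix and basement membrane genes, 12 had one (48%, median quantile 0.763). FBN2, a microfibril protein, scored 6.47, AGRN 5.10 and NTN4 4.65, and EFEMP1 had none at 0.977. Of 20 genes of collagen processing and crosslinking, 13 had one (65%, median quantile 0.859), with the lysyl hydroxylase PLOD1 at 6.13, the collagen galactosyltransferase GLT25D1 at 5.91 and the procollagen proteinase BMP1 at 5.47, but not LOXL2, at 0.961. Of 17 metalloproteinases and their inhibitors, 5 had one (29.4%, median quantile 0.462), with the inhibitors TIMP3 at 4.03 and TIMP2 at 3.57 and the membrane protease MMP15 at 3.86, but not MMP24, at 0.638. The 80 members had a median quantile of 0.489. At quantiles of 0.8 and over the counts were 20 of 22 members, 12 of 18 adaptors, 10 of 11 matrix genes, 10 of 11 processing genes and 4 of 4 of the last group, against 70.3% of other coding transcripts. The adaptors' share there, 66.7%, lies near that background.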

How the data were processed

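The deposited file was 1 table covering all libraries. Per the file headers, the authors gave each transcript an expression quantile, a fraction from 0.314 to 1, and each peak a position, exon number, exon length, segment and score. The authors' peak score has no stated scale. The transcript start segment covers positions under 200 nt. The aligner, peak caller, annotation, build and the libraries behind the quantile: each was not given in the sources used here. Depth per library is unknown, so the precision of single values is too.

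Matching to GENCODE release 29 required the same symbol (older ones included), the same chromosome and strand, an identical span and equal listed exons. In a match chosen after seeing the data, only the 2 terminal exons could differ in length and every listed position had to lie in its exon, except that a peak beyond either end of the reference transcript, as in ITGA6, was left out. It was tested on simulated data, with trimmed ends and a position in the last exon. That did not test the choice between transcripts of a gene. Of the transcripts that fitted, the one with most segments equal to the authors' was taken. Its segments equalled the authors' for 41 of 42 member peaks, which is therefore no independent check of the placement. The exception was COL12A1. Reference sequences and structures come from GENCODE, and coordinates from the table, with starts counted from 1. For genes without a peak, exon lengths are those of the longest coding transcript.

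Shares have 95% Wilson intervals (scipy 1.17.1, Python 3.11.15, pandas 2.3.3), the median score an order-statistic interval. No test was made, since no column belonged to a single library. Named are all members with a peak, the 3 most expressed without one in each family, and by list the 3 highest scores and the most expressed gene without a peak. ITGB6, COL6A2, COL6A3, COL29A1, COL6A6 and the lineage markers shown were named after their values were seen. Members and lists were chosen with earlier results of these data known. Alternatives changed the score minimum, denominators, peaks per gene, exon length, motif window and matching.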

Additional observations from a re-analysis of the deposited data

How the results depend on the processing

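No paired analysis was possible because no column belongs to a single library. The share of members with a peak, 31.25%, was 64.1% (25 of 39) among those at quantiles of at least 0.5, where 58.5% of coding transcripts had one, since weakly expressed members leave the denominator. With scores of at least 3 it was 25%, against 4837 of 19885 other coding transcripts, a share close to it. Above the lowest quantile it was 39.7%, against 45.8% of coding transcripts. The share of transcript start peaks, 14.0%, was 5.71% (2 of 35) with scores of at least 3. The other segment shares stayed within their intervals. The median score, 3.67, was 4.25 with the highest peak of each gene, a choice made on score. Exons of at least 400 nt held 76.0% of peaks, those of at least 200 nt 92.0% and of at least 1000 nt 52.0%, against 84.4%, 93.2% and 59.5% in other coding transcripts. RRACH lay within 50 nt of 40.0% of 5 exactly matched peaks, within 100 nt of 100%, and DRACH, which also allows T as first base, within 50 nt of 80%. With terminal exons free to differ, an alternative chosen after seeing the data, it was 81.0% of 42. Exact matching left too few peaks for a firm share.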
